A study of Mus musculus with 14 samples.

Results

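Transcripts of 9 genes of TREM2-TYROBP signalling were followed in microglia sorted from mouse retina: the receptor Trem2, its adaptor Tyrobp, the Src-family kinases Lyn and Fgr, the kinases Syk and Btk, the phospholipase Plcg2, and the phosphatases Inpp5d and Ptpn6. They were chosen by symbol, and all 9 are among the 35735 genes of the deposited gene-level table. Each of the 14 libraries came from 1 retina of a mouse aged 12 weeks that was homozygous for APOE E3 or for APOE E4, the isoforms of human apolipoprotein E called APOE3 and APOE4 here. The eye had received either a sham injection or microbeads, which obstruct the outflow of fluid and serve as a glaucoma model. The groups were APOE3 sham (n = 4), APOE3 microbead (n = 3), APOE4 sham (n = 4) and APOE4 microbead (n = 3). All 4 groups share the sort, which kept CD11b-positive, Ly6c-negative cells carrying FCRLS, a surface protein of resident microglia. Because nothing states that each retina came from a different animal, p-values measure the spread between these samples.

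TREM2 is a lipid- and lipoprotein-sensing receptor of microglia that has no signalling tail of its own and pairs with TYROBP (DAP12). Src-family kinases phosphorylate the immunoreceptor tyrosine-based activation motif (ITAM) of TYROBP, SYK docks there, and phospholipase C-gamma-2 and PI3-kinase carry the signal on. The phosphatases SHIP1 (gene Inpp5d) and SHP1 (gene Ptpn6) oppose it. In the brain, this pathway is known for its part in the transition of microglia to the disease-associated state and for risk variants of Alzheimer's disease in several of its genes.

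The sequences printed here are the promoter of Fgr, the gene that changed, and those of Trem2 and Inpp5d, which were not called changed. RefSeq promoters (GRCm38.p6) run from 250 bases before to 50 bases after the annotated start, written 5′ to 3′ on the gene's strand. Of the 9 genes, 7 have an entry. Capitals mark GAGGAA or its other strand TTCCTC, the core recognised by PU.1, the transcription factor of the macrophage lineage. The Fgr window is chr4:132973845-132974144, the Trem2 window chr17:48346151-48346450 and the Inpp5d window chr1:87620062-87620361, all on the plus strand.
Fgr promoter: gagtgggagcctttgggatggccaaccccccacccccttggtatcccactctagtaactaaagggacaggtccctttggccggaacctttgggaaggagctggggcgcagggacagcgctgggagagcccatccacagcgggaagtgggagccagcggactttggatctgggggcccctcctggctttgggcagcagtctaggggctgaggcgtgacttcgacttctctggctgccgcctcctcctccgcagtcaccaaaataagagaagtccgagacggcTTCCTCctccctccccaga
Trem2 promoter: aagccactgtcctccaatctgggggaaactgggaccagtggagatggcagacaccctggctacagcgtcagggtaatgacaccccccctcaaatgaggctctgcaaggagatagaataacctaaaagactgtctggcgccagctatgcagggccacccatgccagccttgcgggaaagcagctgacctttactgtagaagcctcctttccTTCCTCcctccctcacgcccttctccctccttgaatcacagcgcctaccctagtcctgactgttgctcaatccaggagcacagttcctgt
Inpp5d promoter: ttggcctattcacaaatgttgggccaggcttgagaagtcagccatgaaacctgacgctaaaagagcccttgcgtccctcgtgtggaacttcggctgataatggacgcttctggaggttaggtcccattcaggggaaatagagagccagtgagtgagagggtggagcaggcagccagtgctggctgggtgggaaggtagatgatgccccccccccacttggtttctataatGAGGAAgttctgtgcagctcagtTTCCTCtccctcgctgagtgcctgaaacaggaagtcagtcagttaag
In all, 5 of the 7 genes with an entry held the core on either strand, as did 28.3% of 32851 promoters of the same length. The 7 genes have 8 entries, and a gene was counted if any entry matched, whereas the share is by promoter. The longer word GAGGAAGT (other strand ACTTCCTC, which contains the core) occurred in 1 of the 7, Inpp5d, against 3.20% of all promoters. A match is a description of these letters and was not set against binding data.

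Libraries held 453429 to 730134 estimated reads, of which 38.0% to 64.5% fell on the predicted genes that make up 10 of the 12 most abundant genes. Groups were compared with edgeR's quasi-likelihood test over 7609 genes. Each difference is on the log2 scale, followed by its standard error (SE), and a gene is called changed at an adjusted p under 0.05 (Benjamini-Hochberg over all genes tested). Levels are given as CPM (reads scaled to a common library size with TMM), a scale on which a gene can be compared between libraries. All 12 microglial marker genes were tested. Their summed level was 14760 to 19789 CPM in APOE3 sham, 14716 to 17694 in APOE4 sham, 14588 to 17208 in APOE4 microbead and 7029, 10694 and 12027 in APOE3 microbead 1, 2 and 3. Summed markers of monocytes (13 genes, 2 of them tested and none at 0 in every group) were at 1667, 859 and 327 CPM in those 3 libraries. They were at 67.2 to 102 in APOE3 sham, 46.2 to 76.1 in APOE4 sham and 56.5 to 219 in APOE4 microbead. The gate marker transcript Ly6c2 had 6, 4, 6 and 1 reads in APOE3 sham, APOE3 microbead, APOE4 sham and APOE4 microbead. Fcrls, the transcript of the other gate marker FCRLS, was at 163 to 280 CPM in APOE3 sham and 170 to 274 in APOE3 microbead. It was lower in APOE4 sham, at 77.1 to 138 CPM, and at 126 to 230 in APOE4 microbead. Neutrophil-defining S100a8, S100a9 and Ly6g had at most 2 reads in any group. In such pooled cells, fewer cells of a type and less RNA per cell cannot be told apart.

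Per length, the adaptor was the most abundant of the 9 transcripts and its receptor the next. On the deposited TPM scale, which corrects for transcript length and so allows genes to be compared, Tyrobp had a median of 373 over the 14 libraries (241 to 851) and Trem2 one of 149.6 (66.2 to 289), and they ranked first and second in 14 of 14 libraries. Inpp5d (median 55.6 TPM), Ptpn6 (42.4) and Lyn (27.5) formed the middle of the order. Inpp5d exceeded Ptpn6 in 8 of 14 libraries, so these neighbours were not separated, whereas Ptpn6 exceeded Lyn in 12 and Lyn exceeded Btk in 14. The lowest 4 were Btk (7.48 TPM), Plcg2 (5.77), Syk (5.65) and Fgr (1.65). Btk exceeded Plcg2 in 8 libraries, Plcg2 exceeded Syk in 10 and Syk exceeded Fgr in 10. Fgr, Syk and Btk each ranged from rank 6 to rank 9. Reads behind the values ranged from 5945 for Tyrobp and 5054 for Trem2 to 459 for Btk and 189 for Fgr over all libraries, and all 9 genes had enough reads to be tested.

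**Figure D1:**
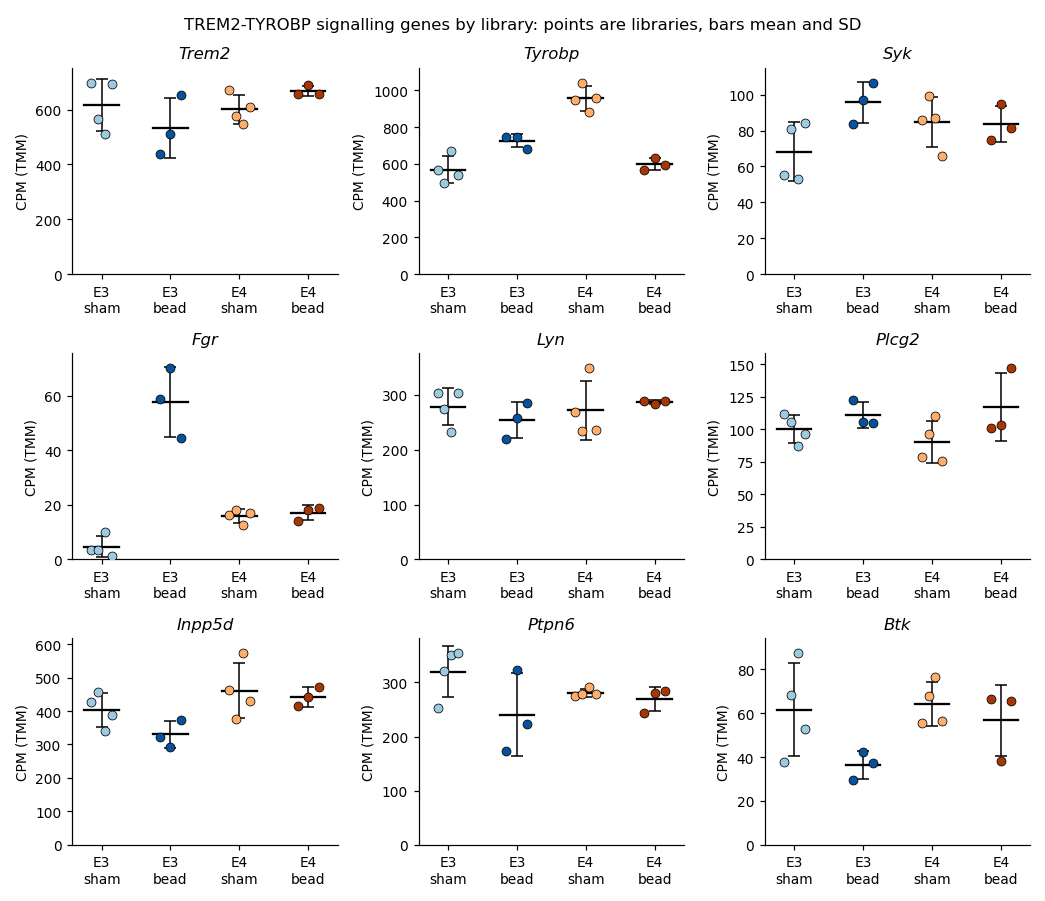
Level of each gene in CPM (TMM-scaled, linear axis from 0) in every library, with 1 point a library, a long bar for the group mean and error bars of 1 SD (n = 4 sham, n = 3 microbead per genotype; E3 and E4 stand for APOE3 and APOE4). Fgr stands at 44.4 to 70.1 CPM in APOE3 microbead and at 1.20 to 19.0 elsewhere, and Tyrobp is highest in APOE4 sham.

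The receptor Trem2 (chromosome 17, 48346401 to 48354147, plus strand, GRCm38 as all positions here) stood at a similar level in every group. Its CPM was 697, 567, 510 and 693 in APOE3 sham and 439, 511 and 653 in APOE3 microbead. It was 671, 578, 548 and 611 in APOE4 sham and 656, 689 and 657 in APOE4 microbead. The lowest library was APOE3 microbead 1, and the APOE3 groups overlapped. The log2 fold change of microbead against sham in APOE3 was -0.21 ± 0.18 (SE, adjusted p = 0.705), and its 95% interval ran from -0.58 to 0.16. Without APOE3 microbead 1 and 2 it was 0.09, so its sign rested on those libraries. After microbeads every APOE4 library lay above every APOE3 library, by a margin that did not pass (0.32 ± 0.19, adjusted p = 0.668). Of the Trem2 reads, 71.7% were assigned to the full-length coding transcript Trem2-201 and 15.6% to Trem2-203, which retains an intron.

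Tyrobp, the ITAM adaptor (chromosome 7, 30413760 to 30417585, plus strand), was highest in APOE4 sham. It was at 565, 495, 668 and 542 CPM in APOE3 sham and at 749, 748 and 684 in APOE3 microbead. In APOE4 it was at 945, 1041, 880 and 960 CPM in sham and at 565, 631 and 596 in microbead. All 3 microbead libraries of APOE3 thus lay above their shams and all 3 of APOE4 below theirs. Neither difference passed the test over 7609 genes: the log2 fold change was 0.36 ± 0.17 (SE, adjusted p = 0.302) in APOE3 and -0.68 ± 0.17 (adjusted p = 0.101, unadjusted p = 0.000398) in APOE4. The APOE4 change minus the APOE3 change was -1.04 ± 0.24 (adjusted p = 0.0750), and APOE4 sham against APOE3 sham was 0.75 ± 0.15 (adjusted p = 0.151, unadjusted p = 3.96e-05). These comparisons share the APOE4 sham libraries. After microbeads APOE4 lay below APOE3 in all libraries (-0.28 ± 0.18, adjusted p = 0.687). DESeq2, adjusting over the genes left by its own filter, called Tyrobp in APOE4 (adjusted p = 0.00264), between shams (adjusted p = 0.00152) and in the interaction (adjusted p = 0.000498). edgeR called it in APOE4 with only the APOE4 libraries in the fit (adjusted p = 0.00532) and without APOE3 microbead 1 and 2 (adjusted p = 0.0483), and in the interaction without APOE3 microbead 3 (adjusted p = 0.0323).

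Tyrobp reads were also set against Trem2 reads of the same library, a ratio that no scaling changes. Tyrobp had 0.810, 0.873, 1.31 and 0.782 reads per Trem2 read in APOE3 sham and 1.71, 1.46 and 1.05 in APOE3 microbead. The ratio was 1.41, 1.80, 1.61 and 1.57 in APOE4 sham and 0.862, 0.916 and 0.908 in APOE4 microbead. The APOE4 groups did not overlap, while APOE3 microbead 3 lay within the range of the APOE3 shams. The coding transcript Tyrobp-202 took 19.8% to 43.0% of Tyrobp reads in the APOE4 shams and 43.6% to 55.8% in APOE4 microbead. In APOE3 its share was 23.7% to 47.6% in sham and 32.8% to 45.3% in microbead. These shares are estimates from short reads and were not tested.

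Fgr, a Src-family kinase of myeloid cells (chromosome 4, 132974095 to 133001910, plus strand), rose in APOE3 retinas after microbeads. It was at 3.44, 3.51, 10.2 and 1.20 CPM in APOE3 sham and at 58.8, 70.1 and 44.4 in APOE3 microbead, from 10 reads over the shams and 114 over the microbead libraries. In APOE4 it was at 16.1, 18.2, 12.4 and 17.0 CPM in sham and at 14.1, 18.3 and 19.0 in microbead, from 36 and 29 reads. The 2 APOE3 groups were far apart, the 2 APOE4 groups overlapped, and every APOE4 sham library lay above every APOE3 sham library.

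The log2 fold change of Fgr in APOE3 was 3.75 ± 0.45 (SE, adjusted p = 5.59e-06), between means of 4.58 ± 3.87 (SD, n = 4) and 57.8 ± 12.9 CPM (SD, n = 3). In APOE4 the means were 15.9 ± 2.48 and 17.1 ± 2.63 CPM, and the 95% interval of the log2 difference ran from -0.78 to 1.00. The interaction passed, at -3.64 ± 0.65 (adjusted p = 0.0154), as did APOE4 against APOE3 after microbeads (-1.74 ± 0.41, adjusted p = 0.0405) and microbead against sham averaged over genotypes (1.93 ± 0.32, adjusted p = 0.000406). Between shams the difference of 1.89 ± 0.50 did not pass (adjusted p = 0.562, unadjusted p = 0.000719). Without APOE3 microbead 1 and 2, the libraries with most monocyte markers, the APOE3 value was 3.35 (adjusted p = 0.00999), while the interaction (-3.23, adjusted p = 0.451) and the difference after microbeads (-1.36, adjusted p = 0.909) were no longer called. With 1 APOE3 microbead library left, that library is assumed to vary like the other groups. The interaction was also lost without APOE4 sham 1 (adjusted p = 0.0501), APOE4 sham 2 (0.0580), APOE3 microbead 2 (0.0585) or APOE4 microbead 1 (0.0643). The difference after microbeads was lost in 8 of 14 fits that left out 1 library: without APOE3 microbead 1 (adjusted p = 0.125) or 2 (0.249), APOE4 microbead 1 (0.193), 2 (0.119) or 3 (0.137), or APOE4 sham 1 (0.0520), 2 (0.0501) or 4 (0.0510).

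The reads of Fgr were spread unevenly over its 3 annotated transcripts. The coding transcript Fgr-201 took all 63 reads of APOE3 microbead 2 but 11.03% of the 25 reads of APOE3 microbead 3, where the non-coding Fgr-203 took 73.4%. Such shares set the length that a TPM value is divided by: with 9 reads APOE4 sham 4 was at 7.90 TPM, and with 11 reads APOE4 sham 2 was at 1.44. On the TPM scale the APOE3 change was 2.35 on log2(TPM + 1) (limma, adjusted p = 0.0691) and 3.55 on log2(TPM + 0.1) (adjusted p = 0.0919), neither of them called.

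Lyn, the Src-family kinase with more reads (chromosome 4, 3678115 to 3813122, plus strand), did not move with Fgr. It was at 304, 274, 232 and 303 CPM in APOE3 sham, 219, 257 and 286 in APOE3 microbead, 269, 233, 349 and 236 in APOE4 sham and 289, 282 and 289 in APOE4 microbead. All 4 ranges overlapped or touched, and the 95% interval of microbead against sham ran from -0.53 to 0.27 in APOE3 and from -0.32 to 0.47 in APOE4 (log2). Fgr had 0.00395 to 0.0439 reads per Lyn read in APOE3 sham and 0.155 to 0.273 in APOE3 microbead. In APOE4 there were 0.0357 to 0.0780 in sham and 0.0490 to 0.0659 in microbead. The 2 opposite-strand genes with reads inside Lyn, 9430025C20Rik and Gm11805, held 64 and 47 reads against 2281 for Lyn.

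Lyn-202, one of the 2 main coding transcripts of Lyn beside Lyn-201 (GENCODE M21), was found mainly in APOE4 sham. There it took 28.3%, 97.5%, 42.6% and 48.8% of Lyn reads. It took 22.6%, 28.5%, 0% and 0% in APOE3 sham, 0% in each APOE3 microbead library and 0%, 17.8% and 0% in APOE4 microbead. The APOE4 sham range overlapped that of APOE3 sham, since APOE3 sham 2 lay above APOE4 sham 1. Estimates for transcripts that share nearly all their sequence can fall to 0 in one library and take most reads in another, and no test was made.

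**Figure D2:**
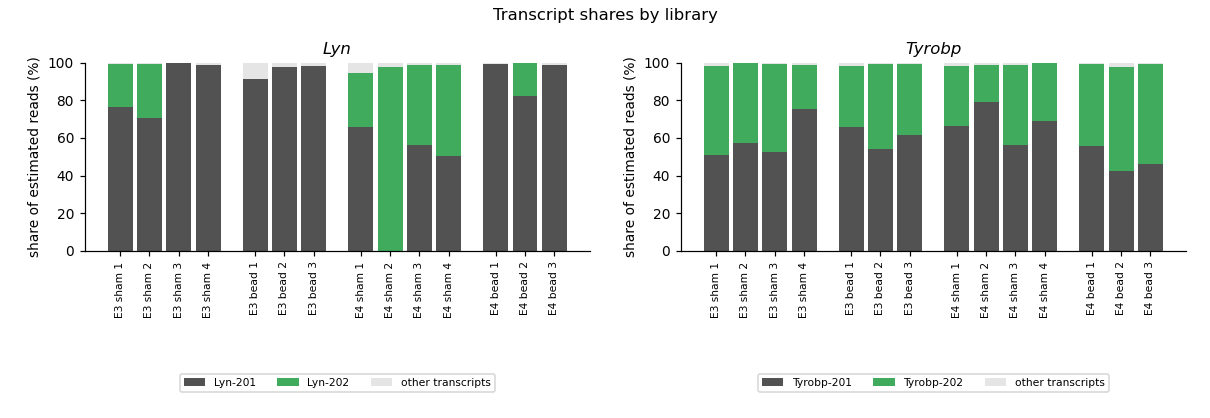
Share of estimated reads (%) on the main transcripts of Lyn and Tyrobp, with 1 stacked bar a library (E3 and E4 for APOE3 and APOE4, bead for microbead) and the remaining transcripts in light grey. Lyn-202 is at 0% in the 3 APOE3 microbead libraries and at 28.3% to 97.5% in the APOE4 shams, and Tyrobp-202 is at 43.6% to 55.8% in APOE4 microbead.

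The enzymes that act at and after the ITAM were not called in any comparison. Syk, the kinase recruited to the phosphorylated motif (chromosome 13, 52583173 to 52648792, plus strand), was at 55.0, 80.8, 52.8 and 84.0 CPM in APOE3 sham and 83.7, 96.8 and 107 in APOE3 microbead. It was at 86.1, 99.3, 87.1 and 66.0 in APOE4 sham and 74.7, 94.7 and 81.2 in APOE4 microbead. The APOE3 groups overlapped by a single pair of libraries, and the difference of 0.48 ± 0.23 did not pass (adjusted p = 0.338). Btk, a Tec-family kinase that activates phospholipase C-gamma (chromosome X, 134542336 to 134583570, minus strand), was at 37.8, 68.5, 87.3 and 52.8 CPM in APOE3 sham and 29.4, 42.3 and 37.3 in APOE3 microbead. It was at 55.6, 67.9, 76.5 and 56.6 in APOE4 sham and 66.6, 38.2 and 65.7 in APOE4 microbead. Its lowest values were in APOE3 microbead, at -0.72 ± 0.30 against sham (adjusted p = 0.218) and -0.45 ± 0.21 averaged over genotypes (adjusted p = 0.310), from 459 reads in all. The enzyme Plcg2, which Syk and Btk activate (chromosome 8, 117498291 to 117635142, plus strand), was at 112, 105, 87.3 and 96.0 CPM in APOE3 sham and 122, 106 and 105 in APOE3 microbead. It was at 78.9, 96.0, 110 and 75.4 in APOE4 sham and 101, 103 and 147 in APOE4 microbead. APOE4 microbead 3 was the highest library, and the APOE4 difference of 0.37 ± 0.22 did not pass (adjusted p = 0.858). It was -0.03 when fitted on log2(TPM + 1) or log2(TPM + 0.1), where the median over all genes was -0.26 or -0.35.

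The phosphatases were the middle-abundance members and neither was called in any comparison. Inpp5d, whose product SHIP1 removes a phosphate from the lipid made by PI3-kinase (chromosome 1, 87620312 to 87720507, plus strand), was at 428, 458, 341 and 389 CPM in APOE3 sham and 323, 293 and 375 in APOE3 microbead. It was at 463, 377, 573 and 430 in APOE4 sham and 414, 442 and 472 in APOE4 microbead. Every APOE4 microbead library lay above every APOE3 microbead library, by 0.42 ± 0.20 (adjusted p = 0.490, unadjusted p = 0.0433), and microbead against sham in APOE3 was -0.29 ± 0.19 (adjusted p = 0.539). Ptpn6, which encodes a tyrosine phosphatase of inhibitory receptors (chromosome 6, 124720707 to 124738714, minus strand), was at 252, 321, 351 and 354 CPM in APOE3 sham and 174, 324 and 224 in APOE3 microbead. It was at 274, 278, 292 and 279 in APOE4 sham and 244, 281 and 285 in APOE4 microbead. The APOE3 microbead libraries differed most among themselves, and the APOE3 difference of -0.40 ± 0.20 did not pass (adjusted p = 0.375).

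Counted over the 9 genes, few calls were made in any comparison. In APOE3, microbead against sham called 1 higher and 0 lower, against 5.2% of the 7609 genes tested (3.54% called higher and 1.67% lower), with 4 of 9 (Tyrobp, Syk, Fgr and Btk) at an unadjusted p under 0.05 (14.7% of all genes). In APOE4, edgeR called 0 of 9, against 0.223% of all genes (0.197% called higher), with 1 of 9 at an unadjusted p under 0.05 (6.49% of all genes) and 1 called by DESeq2. The interaction called 1 of 9, Fgr, against 0.092% of all genes, with 2 of 9 (Fgr and Tyrobp) at an unadjusted p under 0.05 (8.19%). Between shams edgeR called 0 of 9, against 0.0131%, with 2 at an unadjusted p under 0.05 (4.4% of all genes) and 1 called by DESeq2. After microbeads 1 of 9 was called, lower in APOE4, against 0.578% (0.355% called lower and 0.223% higher), and 1 of 9 was called higher when averaged over genotypes, against 4.63% called in either direction and 3.27% called higher. The median log2 fold change of the 9 was -0.13 in APOE3 (all genes -0.02) and -0.02 in APOE4 (all genes 0.00). The sign of the APOE3 median was not stable. It was 0.04 with transcript length offsets, and 0.07 both on log2(TPM + 1) and on log2(TPM + 0.1). In APOE3, 2 of the 9 (Fgr and Tyrobp) had groups that did not overlap, as did 13.1% of all genes, and in APOE4 it was 1 (Tyrobp), against 9.03%. Between shams 2 of the 9 (Fgr and Tyrobp) did not overlap, against 3.52%, and after microbeads 4 (Trem2, Tyrobp, Fgr and Inpp5d), against 14.5%.

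**Figure D3:**
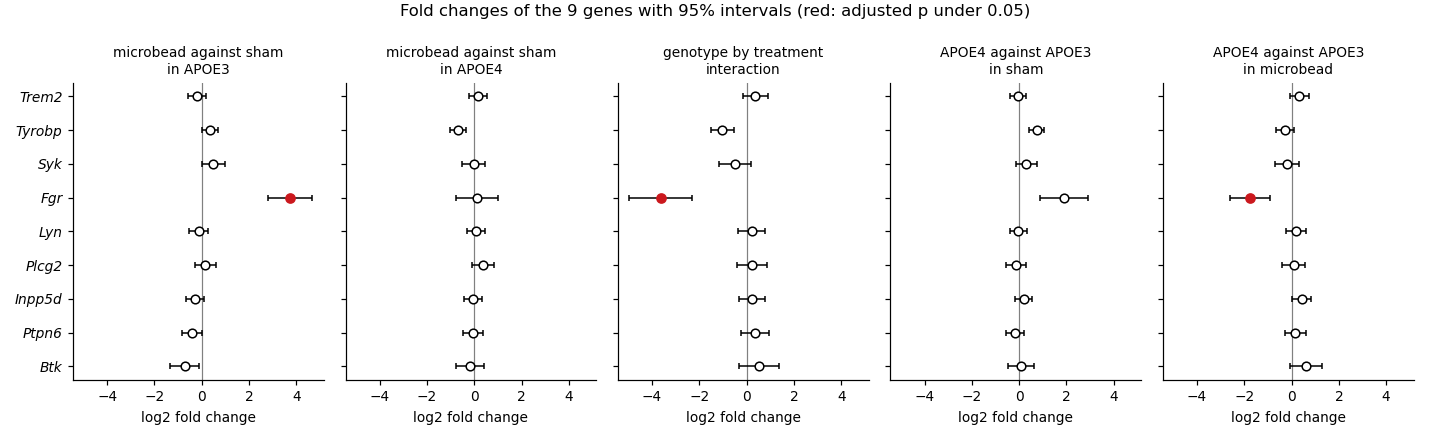
Log2 fold change of the 9 genes in 5 comparisons, with 95% intervals from the edgeR fit (3 or 4 libraries per group); red points have an adjusted p under 0.05 and the interaction is the change in APOE4 minus that in APOE3. Fgr is the gene in red, at 3.75 in APOE3, -3.64 in the interaction and -1.74 for APOE4 against APOE3 after microbeads.

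Monocyte markers stood higher in the libraries where Fgr was highest, while the mean sums of other marker lists were higher or lower there. Monocyte markers summed to 327 to 1667 CPM in APOE3 microbead, where Fgr was at 44.4 to 70.1 CPM. APOE3 microbead 1 held most of these markers (1667 CPM) and APOE3 microbead 2 most Fgr. In APOE4 microbead 2 the markers stood at 219 CPM beside 18.3 CPM of Fgr, where the APOE4 shams held 46.2 to 76.1 CPM of markers and 12.4 to 18.2 CPM of Fgr. Of the marker genes, Fn1 had 58 reads in APOE3 sham and 1017 in APOE3 microbead, Chil3 had 4 and 147, and Ccr2 had 28 and 150. Summed markers of border macrophages were at 59.7 to 99.5 CPM in APOE3 sham and 81.7 to 191 in APOE3 microbead. Of their 8 genes, 5 had fewer reads in APOE3 microbead (Cd163 had 21 in sham and 7 in microbead, Pf4 had 30 and 1), and Ms4a7 had most of the rest, with 38 and 147. Dendritic cell markers summed to 15.6 to 29.8 and 30.2 to 91.2 CPM, with Cd209a at 2 and 38 reads and Ccr7 at 2 and 33, but Flt3 at 13 and 6. The mean sums were lower in APOE3 microbead than in APOE3 sham for B cells (122 against 301 CPM), neutrophils (251 against 326), rods (453 against 1030) and Muller glia (126 against 175). Library ranges overlapped for neutrophils, rods and Muller glia. Csf3r had most of the neutrophil marker reads (738 in sham and 422 in microbead), while Lcn2 had 0 and 5. Ighm had most of the B cell marker reads (670 and 204). Markers of T and NK cells were higher, at 10.3 to 20.3 CPM in APOE3 sham and 24.5 to 24.9 in APOE3 microbead. Trem2 was lowest where monocyte markers were highest, at 439 CPM in APOE3 microbead 1, and Tyrobp was at 684 to 749 CPM over the 3 libraries. The part of these cells in the Fgr and Trem2 values was not tested, beyond the Fgr and Trem2 values given above without APOE3 microbead 1 and 2.

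**Figure D4:**
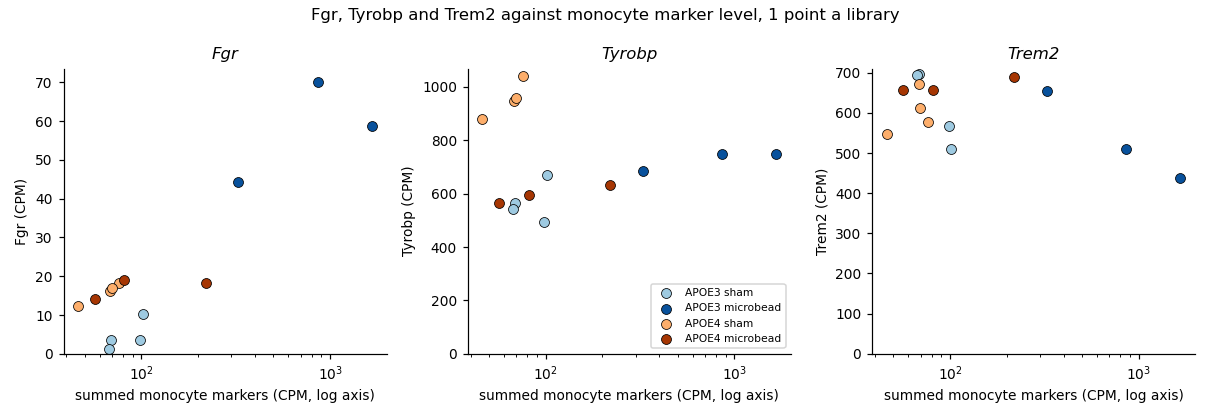
Levels of Fgr, Tyrobp and Trem2 (CPM, linear axis from 0) against the summed level of 13 monocyte marker genes (CPM, log axis), with 1 point a library coloured by group. The 3 APOE3 microbead libraries lie at 327 to 1667 CPM of markers and hold the highest Fgr values, 44.4 to 70.1 CPM, while the highest Tyrobp values belong to APOE4 shams with 46.2 to 76.1 CPM of markers.

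Genes around the 9 were counted in lists of the same pathway. The shares over all genes beside every such count are 3.54% called higher and 1.67% lower in APOE3, and 0.197% called higher in APOE4. Of 9 tested genes of 23 listed ITAM receptors and adaptors, 1 rose and 1 fell in APOE3. The activating Fc receptor Fcgr4 rose from 23.5 ± 11.5 to 109 ± 20.3 CPM (2.23 ± 0.35, adjusted p = 0.000179), and the TYROBP-coupled receptor Siglech fell from 809 ± 89.9 to 357 ± 114 CPM (-1.18 ± 0.19, adjusted p = 0.000264). Fcer1g, the ITAM adaptor of Fc receptors, was at 464 ± 53.3 and 665 ± 103 CPM and did not pass (0.52 ± 0.17, adjusted p = 0.0779). In APOE4, Fcgr4 rose too (1.76 ± 0.35, adjusted p = 0.0271) and Siglech did not pass (adjusted p = 0.947). After microbeads Siglech was higher in APOE4 than in APOE3 (1.17 ± 0.20, adjusted p = 0.00383). Its interaction of 1.01 ± 0.27 did not pass (adjusted p = 0.187).

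Among TREM2 ligands and the proteases that cleave it, 1 of 8 tested genes of 12 rose in APOE3. In APOE4 edgeR, DESeq2 and limma-voom called 0, with 1 at an unadjusted p under 0.05 (6.49% of all genes). Lgals3, galectin-3, rose from 10.7 ± 7.36 to 187 ± 46.7 CPM in APOE3 (4.00 ± 0.73, adjusted p = 0.00699) and was at 14.95 ± 19.5 and 12.3 ± 10.3 CPM in APOE4. Neither its interaction (-4.24 ± 1.24, adjusted p = 0.293) nor APOE4 against APOE3 after microbeads (-3.88 ± 0.81, adjusted p = 0.0774) passed. The mouse transcript of Apoe, another ligand, had 7, 27, 5 and 8 reads in APOE3 sham, APOE3 microbead, APOE4 sham and APOE4 microbead and was not tested, and the human alleles can be miscounted on it. Of 9 tested genes of 18 other Src- and Tec-family kinases and their regulators, edgeR, DESeq2 and limma-voom called 0 in either genotype. At an unadjusted p under 0.05 there was 1 in APOE3 (14.7% of all genes) and 0 in APOE4 (6.49%). The smallest p in APOE3 was that of Pag1, which anchors the kinase that restrains Src family members (-0.57 ± 0.25, adjusted p = 0.246, unadjusted p = 0.0283).

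Of 35 tested of 40 downstream signalling genes, 1 rose and 2 fell in APOE3, where 5.2% of all genes were called. In APOE4 edgeR, DESeq2 and limma-voom called 0 of them, with 1 at an unadjusted p under 0.05 (6.49% of all genes). The exchange factor Rasgrp3 fell by 1.21 ± 0.23 (adjusted p = 0.00124), the PI3-kinase subunit Pik3cg fell by 0.83 ± 0.24 (adjusted p = 0.0400) and the GTPase Rac2 rose by 0.98 ± 0.26 (adjusted p = 0.0216). Of 18 tested inhibitory receptors and phosphatases of 20, 4 rose and 2 fell in APOE3, and 3 rose in APOE4. There DESeq2 called 3 and limma-voom 1. Cd72 rose by 2.99 ± 0.28 in APOE3 (adjusted p = 1.13e-07) and 1.53 ± 0.27 in APOE4 (adjusted p = 0.0103), and Cd300lf by 2.85 ± 0.34 and 1.87 ± 0.37. Fcgr2b, the inhibitory Fc receptor, rose by 1.39 ± 0.22 and 1.05 ± 0.22. Lilrb4a rose in APOE3 (3.01 ± 0.43) and was lower in APOE4 than in APOE3 after microbeads (-2.21 ± 0.44, adjusted p = 0.0191), though its reads can be shared with a near-identical gene. The genes that fell in APOE3 were Cd33, a sialic acid receptor, by 0.73 ± 0.20, and the collagen receptor Lair1, by 0.62 ± 0.18, the latter named after its value was seen. After microbeads Cd33 was higher in APOE4 than in APOE3 (0.87 ± 0.21, adjusted p = 0.0474).

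Most listed genes of disease-associated microglia, defined in mouse brain by whether they need TREM2, rose in APOE3 without a called change of Trem2 or Tyrobp. The lists leave out the 9 signalling genes, so Trem2 and Tyrobp are not in the counts below. Of 13 tested genes of 14 in the TREM2-dependent stage, 9 rose and 0 fell in APOE3 (median 2.32, all genes -0.02), and 1 rose in APOE4 (median 0.75). Axl, a receptor for apoptotic cells, rose by 2.32 ± 0.24 (adjusted p = 6.90e-07), the fatty acid binding protein Fabp5 by 4.12 ± 0.59 and the protease inhibitor Cst7 by 2.50 ± 0.45. In APOE4 the protease Ctsl rose (0.84 ± 0.19, adjusted p = 0.0487 with edgeR). Of this list, DESeq2 called 1 gene in APOE4 and limma-voom 0. Of 5 tested genes of 6 in the TREM2-independent stage, 4 rose in APOE3 (Ctsb, Fth1, Lyz2 and B2m, with a list median of 1.00). In APOE4 edgeR called 0 of the 5 (median 0.43), with 3 at an unadjusted p under 0.05 (6.49% of all genes) and 1 called by DESeq2. In the interaction edgeR called 0 genes of either stage (0.092% of all genes). At an unadjusted p under 0.05 there were 8 TREM2-dependent and 2 TREM2-independent genes (8.19% of all genes), and DESeq2 called 2 and 1. Of every other list edgeR also called 0 genes in the interaction. DESeq2 called 1 ITAM receptor or adaptor and 3 inhibitory receptors and phosphatases there. After microbeads Lilrb4a and the iron store gene Fth1 (-1.03 ± 0.19, adjusted p = 0.00577) were lower in APOE4. Without APOE3 microbead 1 and 2, which leaves 1 library in that group, calls over all genes went from 396 to 37. In APOE3, fewer genes were called in that fit for either stage and for the ITAM, ligand, downstream and inhibitory lists. The calls of Siglech, Cd33, Lilrb4a and Fth1 for APOE4 against APOE3 after microbeads were lost in it. How far this comes from having 1 library in the group was not tested. The APOE3 median log2 fold change of that fit was -0.03 over all genes. It was 0.14 in place of 0.45 for ITAM receptors and adaptors, and 0.10 in place of 0.33 for inhibitory receptors and phosphatases. For TREM2 ligands and cleavage it was 0.17 in place of 0.11, and for downstream signalling 0.15 in place of 0.13. For the other Src- and Tec-family kinases and their regulators it was 0.08 in place of -0.10, and for the 9 genes 0.07 in place of -0.13. The median log2 fold change of the TREM2-dependent list was then 1.76 in place of 2.32, and that of the TREM2-independent list 0.88 in place of 1.00. The part of monocytes in these values was not tested further. Lyz2, which monocytes also express strongly, was at 271 ± 57.3 CPM in APOE3 sham and 3679 ± 2543 in APOE3 microbead.

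**Figure D5:**
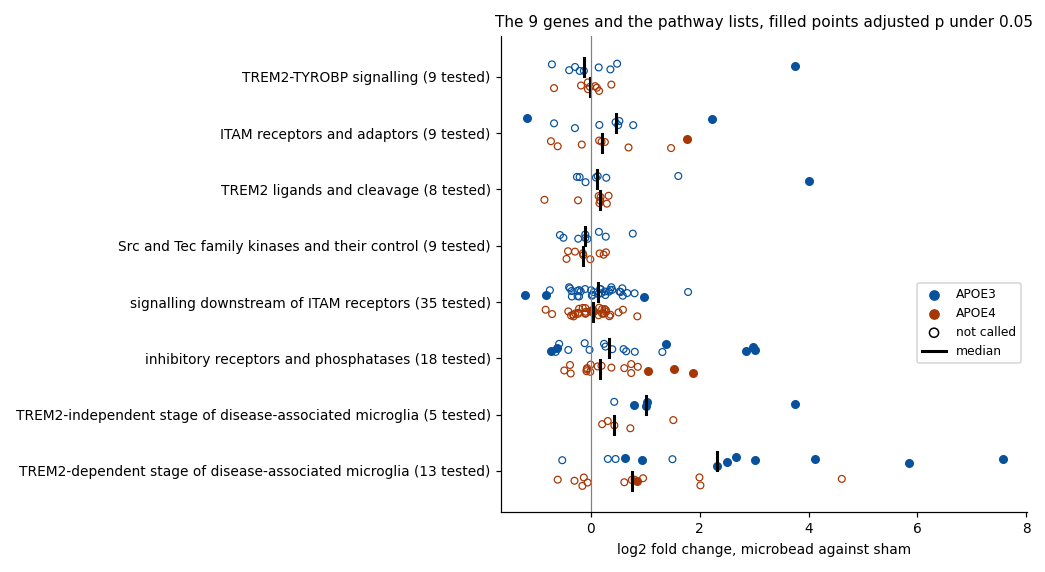
Log2 fold change of microbead against sham for the 9 genes and for each tested gene of 7 pathway lists, in APOE3 (blue) and APOE4 (brown), with filled points at an adjusted p under 0.05 and a black bar at the list's median. The TREM2-dependent list has its median at 2.32 in APOE3 and 0.75 in APOE4, while the 9 signalling genes centre on -0.13 and -0.02.

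The genes whose levels ran most like those of the 3 members that set the pattern were taken by Pearson's r of log2(CPM + 1) over the 14 libraries among 7178 genes, as a description, since group means and library composition enter all of them. For Fgr they were Hspe1 (r = 0.91), Atp6v0c (0.90) and Npc2 (0.89). For Tyrobp they were Dpagt1 (0.79), Slk (0.79) and Capns1 (0.79), and for Trem2 Hps4 (0.93), Tbc1d9 (0.85) and Mag (0.82).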

How the data were processed

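RNA of sorted microglia from 14 retinas was sequenced (SMART-Seq2), and the authors deposited, per library, Salmon's estimated counts and effective length for each transcript and, for the series, a table of TPM per gene. Per the submitters' processing notes, Salmon 1.4.0, R 4.0.3, DESeq2 1.30.1 and the build mm10 were used; the annotation release is not given in the sources used here. Transcripts were summed to genes with GENCODE M21: 116023 of 116945 matched, and the other 922 held 0.275% to 0.430% of reads. Sums were rounded to whole numbers. TPM recomputed per library matched its own column of the deposited TPM table within 1% for 99.2% to 99.4% of genes, and no other column for more than 1.36%.

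Genes were filtered with filterByExpr (minimum count 10, minimum total 15), which left 7609 of 28203 genes with a read. edgeR 4.0.16 (R 4.3.3) fitted 1 robust quasi-likelihood model with TMM scaling and 4 group means over all 14 libraries, with two-sided tests and Benjamini-Hochberg adjustment. The script was tested on simulated data. Alternatives used limma 3.58.1, DESeq2 1.42.0, other scalings, filters and pseudocounts, a replicate block, and fits without single libraries. The fit without APOE3 microbead 1 and 2 was chosen after seeing the data.

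Samples were grouped by their titles. No 2 libraries of a group agreed within sampling noise. Reads are counts of PCR products without molecular identifiers. The 9 genes and all lists were chosen with earlier results of these data known. Named genes are the 9, up to 4 called genes per list and comparison by smallest p (or else the 1 with the smallest p), a few check genes, and the 3 genes most correlated with Fgr, Tyrobp and Trem2. Protein sequences were not used here.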

Additional observations from a re-analysis of the deposited data

Results flagged for a closer look

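Tyrobp differed in sign between the 2 genotypes: all 3 APOE3 microbead libraries (684 to 749 CPM) lay above the 4 APOE3 shams (495 to 668), and all 3 APOE4 microbead libraries (565 to 631) lay below the 4 APOE4 shams (880 to 1041). The difference of the 2 changes was -1.04 on the log2 scale and did not pass the edgeR test (adjusted p = 0.0750).

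Fgr rose after microbeads in APOE3 but was not called in APOE4, and the difference itself passed: the interaction was -3.64 on the log2 scale (edgeR, adjusted p = 0.0154). In 14 fits that each left out 1 library it ran from -4.29 to -3.24, with the adjusted p between 0.00476 and 0.0643.

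Dixon's test was run on the 4 libraries of each sham group for each of the 9 genes, and in 0 of these 18 sets did a library stand apart. Groups of 3, the microbead libraries, were not tested.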

How the results depend on the processing

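The rise of Fgr in APOE3 was called in 23 of 25 alternatives, with log2 values from 2.35 to 4.40. Members called in APOE3 went from 1 to 0 in the limma fits on log2(TPM + 1) and log2(TPM + 0.1), as did those averaged over genotypes. In APOE4 the count went from 0 to 1 (Tyrobp) with DESeq2, with only the libraries compared and without APOE3 microbead 1 and 2, and between shams from 0 to 1 with DESeq2. In the interaction it went from 1 to 0 with limma-voom, transcript length offsets, both TPM fits and without APOE3 microbead 1 and 2. DESeq2 also called 1 there, but it was Tyrobp, since Fgr has no adjusted p in that fit. After microbeads it went from 1 to 0 with DESeq2, library totals as scaling, length offsets, both TPM fits, the replicate block (Fgr adjusted p = 0.0857) and without APOE3 microbead 1 and 2. In DESeq2 Fgr has no adjusted p there either, so it could not be called. Leaving out each library in turn gave 0 to 2 members in the interaction and 0 to 1 after microbeads. Deviations of same-numbered libraries from their group means correlated at -0.116 to 0.0874 over 19 pairs, and 4 of 14 libraries correlated best with their own number. With 3 or 4 libraries per group, this cannot tell whether a number marks a shared animal, litter or day. The replicate block changed no other count of members. Of 54 values, 31 lay more than 1 SE from 0, and 4 of those changed sign: Trem2 in APOE3 to 0.0897 without APOE3 microbead 1 and 2, Trem2 in the interaction to -0.1196 and -0.1194 and Plcg2 in APOE4 to -0.0269 and -0.0318 on log2(TPM + 1) and log2(TPM + 0.1), and Inpp5d between shams to -0.042 with length offsets. Over all genes, calls in APOE3 went from 396 to 149 with library totals, 222 with length offsets, 226 with only the libraries compared, 47 and 12 on TPM, 225 without APOE3 microbead 2 alone and 37 without APOE3 microbead 1 and 2. They went up to 458 with DESeq2, 468 without a filter and 476 without APOE3 microbead 3. Over all alternatives, calls ranged from 2 to 53 in APOE4 (17 as reported), 0 to 68 in the interaction (7), 0 to 12 between shams (1), 2 to 121 after microbeads (44) and 3 to 413 averaged over genotypes (352). The 2 in APOE4 came without APOE4 microbead 2, APOE4 microbead 3, APOE4 sham 3 or APOE4 sham 4, and the 121 after microbeads without APOE3 microbead 3, which also gave 30 in the interaction. With library totals as scaling, the median log2 fold change over all genes was -0.23 in APOE4, -0.21 in the interaction and 0.16 between shams. On log2(TPM + 1) and log2(TPM + 0.1) this median was -0.26 and -0.35 in APOE4 and -0.27 and -0.38 in the interaction. The cause of these changes was not tested. Depth limits Fgr, which had 189 reads in all and 1 to 5 in each APOE3 sham library.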
